A study of Mus musculus with 2 samples.

Results

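Transcripts of 7 genes were followed: the phosphofructokinase (PFK) subunit genes Pfkl, Pfkm and Pfkp, and Pfkfb1, Pfkfb2, Pfkfb3 and Pfkfb4, which encode the PFKFB enzymes that set PFK activity. They were chosen by gene symbol and not by a cutoff on measured values, but with earlier results of these data known. Each matched 1 of the 32285 genes listed in the count tables. The data were single-cell RNA sequencing counts of mouse embryos at E13.5, made with the 10x Genomics 5′ assay, which tags each captured transcript molecule with its own identifier (UMI). The design held 1 control library, Isl1-Cre;R26R-eYFP, and 1 mutant library, Isl1-Cre;R26R-eYFP;Pik3caH1047R, each from 3 pooled embryos. Both genotypes carry Isl1-Cre, which recombines in cells that have expressed Isl1 and in their progeny, and the eYFP reporter by which the cells were sorted; the mutant also carries an inducible transgene for the activated PI3K subunit Pik3caH1047R at the same R26R locus. The mice were kept on a mixed genetic background, and the dissected tissue was the upper body above the liver, although the labels call it pharyngeal arch. No replicate library was analysed, so that genotype, pool, dissection and library cannot be told apart. Intervals are 95% and cover counting error only.

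PFK catalyses the committed step of glycolysis, the transfer of a further phosphate from ATP to fructose phosphate, and works as a tetramer of L (liver), M (muscle) and P (platelet) subunits, alone or mixed. The PFKFB enzymes have a kinase and a phosphatase domain in the same chain, which make and break down a fructose bisphosphate that is not burned itself but activates PFK. Pfkfb3 encodes the form with the most one-sided kinase activity, known for its part in the glycolysis of sprouting ECs, and both Pfkfb3 and Pfkfb4 are known hypoxia-inducible genes. Pfkfb1 is best known from liver and muscle, and Pfkfb2 from heart.

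The filtered cells numbered 2783 in the control and 3489 in the mutant library, with 63153191 and 69717583 UMIs (medians of 20412 and 16839 UMIs per cell); 12 barcodes occurred in both. Clusters were named from marker genes as "X-like", and 10 groups held at least 50 cells in both libraries: EC-like, mesenchyme-like, muscle progenitor-like, differentiating myocyte-like, cardiomyocyte-like, epithelium-like, neuron-like, mesothelium-like and macrophage-like cells, and a cluster led by Adh1 and Wnt2 that stayed unnamed. These are the compared groups, and levels called highest or lowest are so among them. Cells with an Xist UMI and no Y-linked UMI (female-like) made up 95.5% of the control cells and 33.6% of the mutant cells, and the opposite (male-like) made up 53.3% of the mutant cells. The cardiomyocyte-like cells stood apart by their mitochondrial UMIs, with medians of 0.0502% and 0.0487% against 1.31% to 2.51% in the other compared groups. The summed UMIs of Pik3ca, which do not separate the transgene from the endogenous gene, gave 47.3 CPM in control and 45.2 CPM in mutant EC-like cells. CPM stands here for counts per 1000000 UMIs of the group and library.

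The stretches before 5 of the start sites are shown because Pfkl, Pfkp and Pfkfb3 were the genes called higher in most groups, and Pfkm and Pfkfb4 were the abundant or hypoxia-inducible relatives that did not. They are taken from RefSeq (GRCm38.p6), 5′ to 3′ on the gene's strand, from the 250 bases before a start and trimmed to the bases outside annotated exons. For each gene the start with the longest such run is given, and for Pfkm, where the runs of 2 starts were equally long, the upstream one. The printed stretches of Pfkl and Pfkfb3 lie inside the annotated gene spans given below. Their starts are therefore internal ones, downstream of the 5′ end of the annotated gene. Capitals mark ACGTG and GCGTG on either strand, the core letters of the hypoxia response element with either first base.
Pfkl, chr10:78009808-78010004, minus strand: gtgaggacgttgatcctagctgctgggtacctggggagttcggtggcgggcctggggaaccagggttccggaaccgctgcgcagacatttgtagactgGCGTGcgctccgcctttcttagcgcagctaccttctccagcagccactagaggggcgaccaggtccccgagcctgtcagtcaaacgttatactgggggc
Pfkp, chr13:6648778-6649021, minus strand: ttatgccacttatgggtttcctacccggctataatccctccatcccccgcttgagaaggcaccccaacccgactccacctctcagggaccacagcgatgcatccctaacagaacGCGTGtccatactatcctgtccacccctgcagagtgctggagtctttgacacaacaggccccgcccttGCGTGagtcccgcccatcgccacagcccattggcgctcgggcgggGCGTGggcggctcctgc
Pfkm, chr15:98092339-98092588, plus strand: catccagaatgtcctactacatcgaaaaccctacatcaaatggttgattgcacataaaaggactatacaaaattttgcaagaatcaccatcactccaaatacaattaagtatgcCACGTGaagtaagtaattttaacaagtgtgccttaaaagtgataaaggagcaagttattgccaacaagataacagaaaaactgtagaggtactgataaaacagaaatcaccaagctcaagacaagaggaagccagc
Pfkfb3, chr2:11502102-11502340, minus strand: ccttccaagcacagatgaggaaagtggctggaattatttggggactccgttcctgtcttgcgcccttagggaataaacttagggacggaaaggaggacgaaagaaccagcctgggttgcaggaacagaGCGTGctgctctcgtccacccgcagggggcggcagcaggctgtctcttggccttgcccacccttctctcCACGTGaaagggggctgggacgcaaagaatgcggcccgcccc
Pfkfb4, chr9:108991652-108991777, plus strand: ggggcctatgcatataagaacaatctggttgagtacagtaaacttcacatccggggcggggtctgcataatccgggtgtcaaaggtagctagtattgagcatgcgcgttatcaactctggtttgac
The 250 bases before the Pfkl start held 1 GCGTG and no ACGTG, and those before Pfkp held 3 GCGTG. Those before this Pfkfb3 start held 2 ACGTG matches, which are the same palindrome CACGTG read on both strands, and 1 GCGTG. The upstream Pfkm start, 1 of 4 annotated, also carried a CACGTG, the start with an equally long run (chr15:98111810-98112059) held neither motif, and the Pfkfb4 window held 1 GCGTG that lies beyond the printed run. Of 32851 RefSeq windows of 250 bases, 16.57% held ACGTG, 28.16% held GCGTG and 38.6% held either, so that a match is common and is given as a description only. Each of the genes followed had a start with either motif, also those whose sequences are not printed. Pfkfb2 was called in no group, yet 3 of its 3 starts held either motif, 2 of them ACGTG. Pfkfb1, also called in no group, had either motif at 1 of 4 starts, and Pfkm at 3 of 4. The other Pfkfb3 start held 1 ACGTG. A link between motifs and calls was not tested. The counts do not say from which start a transcript came.

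Pfkl (ENSMUSG00000020277, chr10:77986947-78010083) and Pfkfb4 (ENSMUSG00000025648, chr9:108991778-109032228) overlap no other gene in the GENCODE annotation of GRCm38. Pfkm (ENSMUSG00000033065, chr15:98092589-98132451) overlaps Senp1 on the other strand and Gm26513 on its own. Pfkp (ENSMUSG00000021196, chr13:6579768-6648777) overlaps Pitrm1 on the other strand, and Pfkfb3 (ENSMUSG00000026773, chr2:11471433-11554077) overlaps Gm37975 on its own strand and Gm10851 on the other. Pfkfb1 (ENSMUSG00000025271, chrX:150588229-150643878) overlaps Apex2 on the other strand. Pfkfb2 (ENSMUSG00000026409, chr1:130689182-130729253) overlaps Yod1 on the other strand and Gm29427 and Gm37163 on its own. The strand setting of the counting is not given in the sources used here, and reads of such overlaps cannot be assigned further.

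All 3 PFK subunit genes were transcribed in this lineage, and Pfkl was the main one. Over all filtered cells of the control library, Pfkl stood at 86.4 CPM, Pfkm at 26.03 CPM and Pfkp at 13.3 CPM. In the mutant library the levels were 198 CPM for Pfkl, 29.3 CPM for Pfkm and 42.03 CPM for Pfkp. The 5′ assay is built to count a transcript once whatever its length, so these levels are compared between genes without a length correction. Whether reads in introns were counted is not given in the sources used here, and their part in these levels was not tested. Pfkp was thus below Pfkm in the control sum and above it in the mutant sum, but the libraries differed in makeup, with 149 and 693 EC-like and 54 and 184 cardiomyocyte-like cells. Without these groups, which held the most Pfkp of the mutant library, Pfkp stayed below Pfkm in both libraries. It was 10.7 against 25.1 CPM in the control and 23.1 against 27.5 CPM in the mutant library, so that Pfkp was still higher in the mutant cells left. Neuron-like and macrophage-like cells were kept, although their control Pfkp (62.9 and 35.3 CPM) was above that of EC-like cells (28.3 CPM). The part of makeup in the exchanged order was not tested. By group, Pfkp was above Pfkm in 3 of the 10 groups of the control and in 6 of the mutant library.

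Pfkl varied least of the 3 between the cell groups. In the control library it was highest in cardiomyocyte-like cells, at 176 CPM (interval 149 to 206), and lowest in neuron-like cells, at 40.9 CPM. Epithelium-like cells (133 CPM) and the Adh1 cluster (112 CPM) followed the cardiomyocyte-like cells. Within the 6 groups between 61.7 and 92.1 CPM, which include the EC-like cells at 69.6 CPM, adjacent groups did not differ beyond counting error. The ends of this range did, with differentiating myocyte-like cells at 92.1 CPM (82.9 to 102) and mesenchyme-like cells at 61.7 CPM (56.9 to 66.9). The same groups stood at the ends of the order in the mutant library, with 311 CPM in cardiomyocyte-like and 117 CPM in neuron-like cells, and the EC-like cells there were the fourth of 10 with 214 CPM.

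Pfkm, the muscle subunit, was highest in cardiac and not in skeletal muscle cells. Cardiomyocyte-like cells held 142 CPM of Pfkm in the control and 117 CPM in the mutant library. Muscle progenitor-like cells held 21.0 and 25.1 CPM, and differentiating myocyte-like cells, which carried the sarcomere transcripts Myh3 and Tnnc2 among their leading genes, held 13.9 and 46.9 CPM. In the control library the differentiating myocyte-like cells were therefore at the level of the EC-like (12.7 CPM) and macrophage-like cells (11.6 CPM), below the neuron-like (38.4 CPM) and mesenchyme-like cells (35.5 CPM).

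Pfkp was the most uneven of the 3. It stood at 129 CPM in control cardiomyocyte-like cells, at 62.9 CPM in neuron-like, at 35.3 CPM in macrophage-like and at 28.3 CPM in EC-like cells. In the other 6 groups of the control library it lay between 0.505 and 8.74 CPM. The lowest value, in differentiating myocyte-like cells, rested on 2 UMIs and is the nearest to an empty background that these groups offer. In the mutant library the cardiomyocyte-like cells were again highest (254 CPM), followed by EC-like cells (64.5 CPM), and the differentiating myocyte-like cells again lowest (6.75 CPM).

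**Figure D1:**
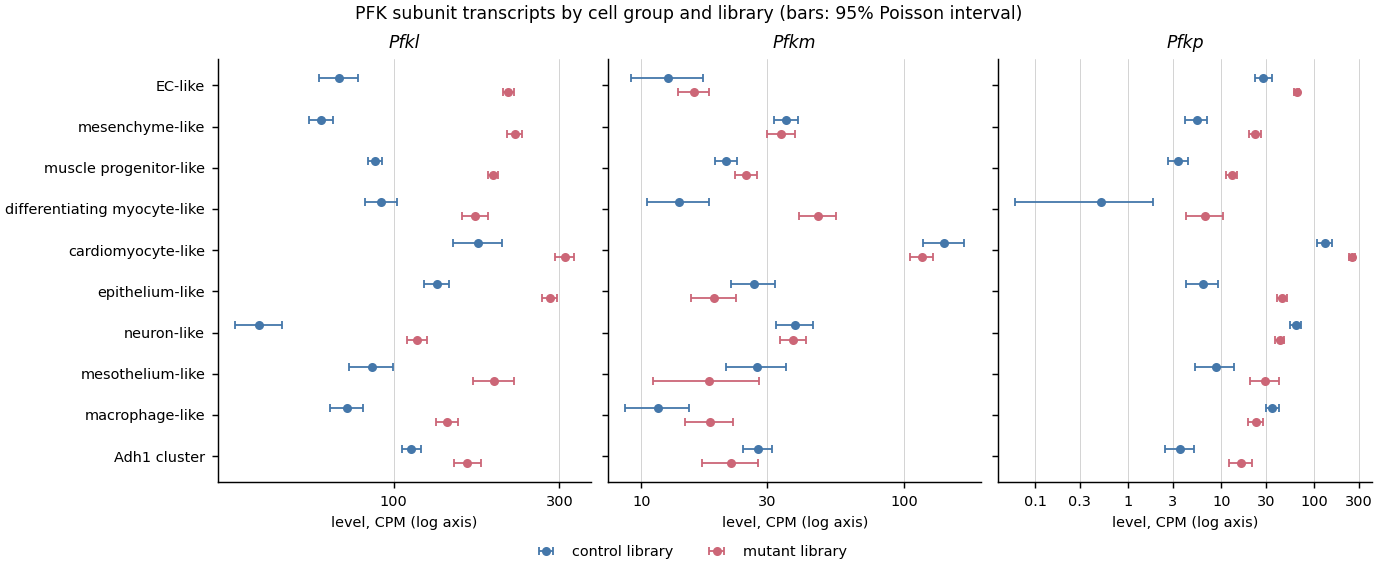
Levels of Pfkl, Pfkm and Pfkp in CPM (log axis) for the 10 compared cell groups, with the control library in blue and the mutant library in red and bars for the 95% Poisson interval of counting. Pfkl lies to the right in the mutant library in every group, Pfkm is highest in cardiomyocyte-like cells (142 and 117 CPM), and Pfkp lies to the left in the mutant library in neuron-like and macrophage-like cells.

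As shares of the PFK UMIs, Pfkl made up more than either other gene in 19 of the 20 pairs of group and library. The exception was the control neuron-like cells, where Pfkp held 44.2% (interval 40.1 to 48.4), Pfkl 28.8% and Pfkm 27.0% of 563 UMIs. In the mutant neuron-like cells Pfkl held 59.3% and Pfkp 21.5% of 1537 UMIs, so that the order of these genes was exchanged between the libraries. Differentiating myocyte-like cells had the most one-sided makeup of the control library, with 86.5% Pfkl, 13.03% Pfkm and 0.474% Pfkp.

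Cardiomyocyte-like cells were the group in which no gene held most of the PFK UMIs in either library. Their control shares were 39.3% Pfkl, 31.8% Pfkm and 28.9% Pfkp of 387 UMIs, and their mutant shares were 45.6%, 17.1% and 37.2% of 2216 UMIs. The genes were also found together in single cells. After every cell was thinned to 5000 UMIs, UMIs of at least 2 PFK genes were present in 46.3% of control cardiomyocyte-like cells (25 of 54) and in 66.9% of mutant ones (119 of 178). In the other groups this share was 2.13% to 10.0% in the control and 5.22% to 21.4% in the mutant library. Without thinning it was 85.2% and 95.1% in the cardiomyocyte-like cells. These cells also held the most PFK transcripts, with sums of 447 and 682 CPM. Taken singly after thinning, Pfkl, Pfkm and Pfkp were present in 53.7%, 48.1% and 35.2% of the control cells. In the mutant cells it was 72.5%, 43.3% and 66.9%. Whether the genes occurred together more often than these single rates give was not tested. No compared group lacks PFK, so that no group served as a blank for these shares. The low mitochondrial share of these cells, given above, goes with these values, and its part in them was not tested.

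**Figure D2:**
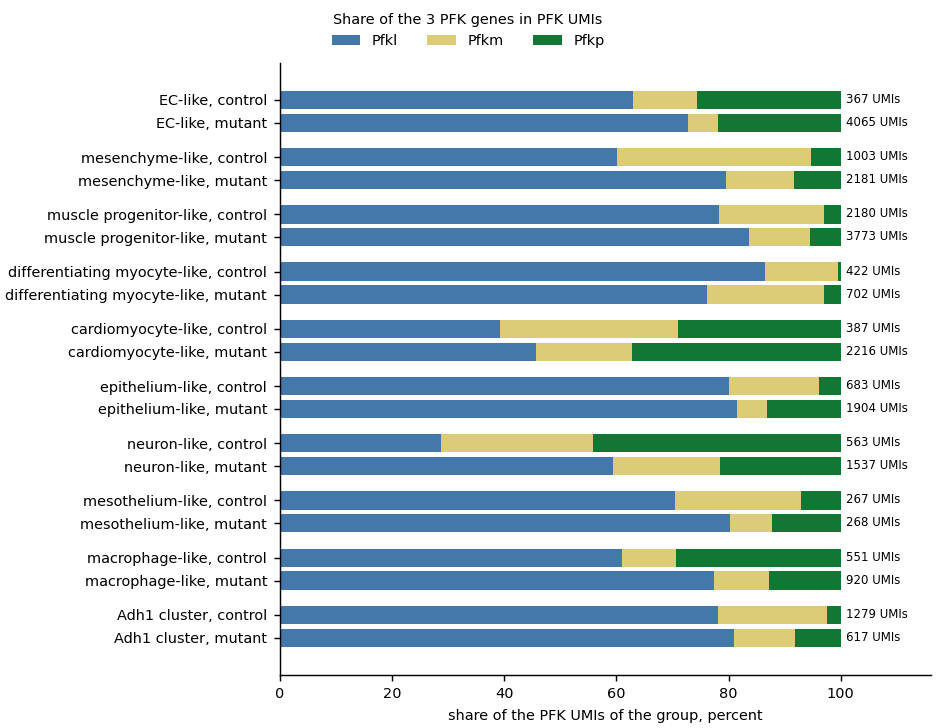
Shares of Pfkl (blue), Pfkm (yellow) and Pfkp (green) in the UMIs of the 3 PFK genes, in percent, for each compared group and library, with the number of PFK UMIs at the right. Pfkl takes most of each bar except in neuron-like control cells, where Pfkp takes 44.2%, and in cardiomyocyte-like cells, where all 3 genes have long segments.

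The PFKFB transcripts were fewer than those of PFK. For every 100 PFK UMIs there were 25.4 PFKFB UMIs (24.2 to 26.7) over the control cells and 25.8 (25.0 to 26.6) over the mutant cells. Cardiomyocyte-like cells stood far below the other groups, with 1.81 PFKFB UMIs per 100 PFK UMIs in the control and 3.61 in the mutant library. The other groups lay between 14.98 and 37.8 in the control and between 21.5 and 38.8 in the mutant library.

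Pfkfb3 was the most abundant of the 4 over all cells, with 14.8 CPM in the control and 50.1 CPM in the mutant library. Pfkfb4 followed with 8.19 and 7.96 CPM, then Pfkfb2 with 5.51 and 6.94 CPM and Pfkfb1 with 3.45 and 4.32 CPM. In the control library, Pfkfb3 was highest in the Adh1 cluster (29.9 CPM) and in macrophage-like cells (27.9 CPM), which did not differ beyond counting error, and stood at 13.6 CPM in EC-like cells. In the mutant library it was highest in EC-like cells (72.9 CPM), where the mesothelium-like, epithelium-like and mesenchyme-like cells, from 64.2 to 68.7 CPM, followed without a difference beyond counting error between neighbours. In both libraries the cardiomyocyte-like cells had the lowest Pfkfb3, with 2.31 CPM (2 UMIs) and 14.5 CPM.

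Pfkfb2 and Pfkfb4 were highest in neuron-like and epithelium-like cells of the control library. Pfkfb2 stood there at 14.9 and 11.2 CPM and Pfkfb4 at 15.9 and 15.6 CPM. Pfkfb4 held 40.3% of the PFKFB UMIs of control epithelium-like cells against 22.6% for Pfkfb3, the only control group of at least 100 PFKFB UMIs in which another gene exceeded Pfkfb3. Among the compared groups Pfkfb1 reached at most 4.60 CPM in the control and 8.14 CPM in the mutant library.

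The next comparison asked which of the 7 genes differed between mutant and control cells of the same group. A gene was called where its whole interval lay beyond 1.5-fold, among genes with at least 20 UMIs in the group, a minimum passed by 63 of the 70 pairs of member and group. In EC-like cells, 3 of the 7 genes were called higher, against 4.70% of all genes tested there, and 1 lower, against 4.87%. In mesenchyme-like cells 3 were called higher (all genes 4.27%) and 0 lower (5.83%). In muscle progenitor-like cells 3 were called higher (7.14%) and 0 lower (3.72%). Among differentiating myocyte-like cells 4 of 5 tested were called higher (6.72%) and 0 lower (3.49%), and among cardiomyocyte-like cells 2 of 4 were called higher (1.71%) and 0 lower (4.12%). In epithelium-like cells 3 of 7 were called higher (3.57%) and 0 lower (3.90%), and in neuron-like cells 2 of 7 were called higher (2.46%) and 0 lower (7.46%). In mesothelium-like cells 3 of 5 were called higher (7.52%) and 0 lower (2.72%). In macrophage-like cells 1 of 7 was called higher (3.65%) and 0 lower (8.54%), and in the Adh1 cluster 1 of 7 was called higher (6.83%) and 0 lower (2.62%). The members called higher were Pfkl, Pfkp and Pfkfb3 in nearly every case, each in 8 of 10 groups, joined by Pfkm in 1 group.

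**Figure D3:**
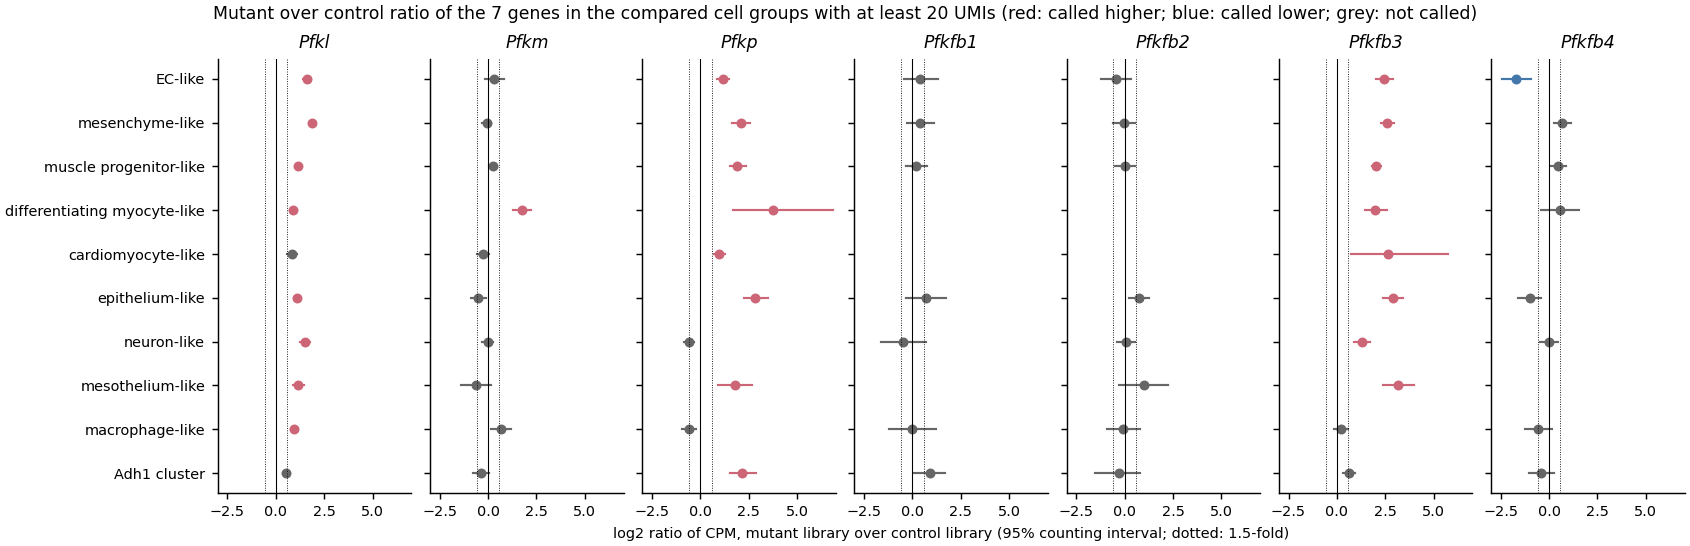
The log2 ratio of CPM, mutant over control library, of each of the 7 genes in the compared groups with at least 20 UMIs, with 95% counting intervals, red where called higher, blue where called lower and grey otherwise. Pfkl, Pfkp and Pfkfb3 are called higher in 8 groups each, Pfkfb1 and Pfkfb2 stay grey throughout, and the only blue point, Pfkfb4 in EC-like cells, rests on 1 control cell.

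Pfkl was higher in the mutant library in all 10 groups, with intervals above 0. In EC-like cells 231 control UMIs and 2955 mutant UMIs gave 69.6 and 214 CPM, a log2 ratio of 1.62 (1.43 to 1.82). The rise was largest in mesenchyme-like cells, from 61.7 to 223 CPM, or 1.85 (1.72 to 1.99). The ratio was smallest in the Adh1 cluster, with 112 and 163 CPM, or 0.54 (0.38 to 0.69), which together with cardiomyocyte-like cells (0.83) was not called. Neuron-like cells had the lowest Pfkl of both libraries and a log2 ratio of 1.51. In the EC-like cells all 12 EC markers were detected and summed to 6256 CPM in the control and 6334 CPM in the mutant library, and the other 14 marker lists summed to at most 266 and 381 CPM. The mesenchyme list, with 12 of 12 markers detected, differed more within its own group, with 11439 and 3514 CPM in mesenchyme-like cells, and in the Adh1 cluster the smooth muscle and mural list was at 612 and 2759 CPM; their part in the Pfkl values was not tested.

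Pfkm, in contrast, was called in 1 group. In differentiating myocyte-like cells it was 13.9 CPM in the control and 46.9 CPM in the mutant library, a log2 ratio of 1.76 (1.30 to 2.23), and its share of the PFK UMIs there was 13.03% and 20.8%. The genes of muscle isoforms at other steps did not move alike in these cells. Eno3, the muscle enolase, was at 100.2 and 240 CPM and was called higher (log2 ratio 1.26), whereas Pgam2, the muscle phosphoglycerate mutase, was at 204 and 239 CPM (0.23, not called). In 6 of the 10 groups the interval of Pfkm included 0, among them EC-like cells (12.7 and 15.9 CPM, log2 ratio 0.32, -0.16 to 0.84) and mesenchyme-like cells (35.5 and 34.0 CPM). In epithelium-like cells it was 26.8 and 18.9 CPM, a log2 ratio of -0.50 (-0.90 to -0.10) that was not called. As the other subunits rose, the share of Pfkm was lower in the mutant library in 8 of the 10 groups, as in mesenchyme-like cells with 34.6% and 12.2%.

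Pfkp was called higher in 8 groups and was lower in the mutant library in the other 2. In EC-like cells it was 28.3 and 64.5 CPM, a log2 ratio of 1.19 (0.88 to 1.51). The calls depended on the cells and the depth used. Among female-like cells 3 groups were called. With every cell thinned to 5000 UMIs, which leaves fewer UMIs and wider intervals, 4 groups were called. The EC-like cells were not called in either, with 0.64 (0.27 to 1.01) and 0.95 (0.35 to 1.61). Epithelium-like cells rose from 6.33 to 45.2 CPM (2.84, 2.25 to 3.48) and mesenchyme-like cells from 5.43 to 23.1 CPM (2.09). The highest ratio, 3.74 in differentiating myocyte-like cells, came from 2 control and 21 mutant UMIs and had an interval from 1.71 to 6.88. These large ratios belong to groups with little Pfkp in the control library. In mesothelium-like cells (8.74 and 29.8 CPM, 1.77) the cardiomyocyte list, with 9 of 10 markers detected in each library, stood at 475 and 1427 CPM, against 59286 and 41432 CPM in the cardiomyocyte-like cells, and its part in the Pfkp values was not tested.

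The groups in which Pfkp was lower in the mutant library were 2 of those with most Pfkp in the control. Neuron-like cells had 62.9 and 42.2 CPM, a log2 ratio of -0.58 (-0.82 to -0.33), and macrophage-like cells 35.3 and 23.4 CPM, or -0.59 (-0.95 to -0.24); neither was called. The neuron-like cells were made of 2 clusters. In cluster 5, with Lhx5 and Gad2 among its leading genes, Pfkp was 65.8 and 36.2 CPM (-0.86), and in cluster 10, led by Ppp1r1c and Neurod1, it was 59.5 and 51.8 CPM (-0.20, -0.56 to 0.17). The neural crest and Schwann list, with all 7 markers detected in both libraries, stood at 466 and 114 CPM in the neuron-like cells, the neuron list at 8271 and 8322 CPM, and the part of this difference was not tested.

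The macrophage-like cells were mixed as well. Their macrophage list (9 of 9 markers detected in both libraries) summed to 4783 CPM in the control and 2032 CPM in the mutant library, and the erythroid list to 3678 and 14048 CPM. At a finer resolution they split into cells with C1q transcripts, 92 control and 41 mutant cells, and cells led by Mpo and Il7r, 80 and 135 cells. Pfkp was 33.5 and 25.2 CPM in the former (-0.41, -1.06 to 0.21) and 37.5 and 22.8 CPM in the latter (-0.72, -1.17 to -0.26). The intervals of Pfkfb3 in these parts did not overlap: it was 26.1 and 53.8 CPM in the cells with C1q transcripts (1.04, 0.52 to 1.57) and 30.0 and 25.5 CPM in the others (-0.24, -0.71 to 0.24). Over all macrophage-like cells the log2 ratio of Pfkfb3 was 0.21 (-0.14 to 0.55).

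Pfkfb3 had the largest rise of the 7 genes in EC-like cells. It stood at 13.6 CPM in the control and 72.9 CPM in the mutant library, a log2 ratio of 2.43 (2.00 to 2.89), that is 5.37-fold. Of the groups in which it was called, mesothelium-like cells had the highest ratio (7.82 and 68.7 CPM, 3.14) and neuron-like cells the lowest (16.9 and 41.2 CPM, 1.28). The mesothelium-like ratio rested on 17 control UMIs and lay between 1.66 and 3.17 under the alternatives. That group had medians of 28114 UMIs per cell in the control and 14080 in the mutant library. Pfkfb3 was not called in the Adh1 cluster (0.62) and the macrophage-like cells, the groups with most Pfkfb3 in the control library. Cluster 10 of the neuron-like cells rose from 8.27 to 49.8 CPM (2.59, 1.82 to 3.46), and cluster 5 was at 24.3 and 35.8 CPM (0.56, 0.10 to 1.04).

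Pfkfb4 did not follow Pfkfb3. Among EC-like cells its sum was lower in the mutant library, with 28 control UMIs (8.44 CPM) and 36 mutant UMIs (2.61 CPM), a log2 ratio of -1.70 that passed the call. Of the 28 control UMIs, however, 18 lay in 1 cell. Without the cell with the most Pfkfb4 UMIs in each library the levels were 3.06 and 2.46 CPM and the log2 ratio -0.31 (-1.36 to 0.87), which was not called. Epithelium-like cells held 15.6 and 7.81 CPM (-0.997, -1.59 to -0.42, not called), whereas mesenchyme-like cells held 8.70 and 14.003 CPM (0.69, 0.26 to 1.11, not called). Neuron-like cells, with most Pfkfb4 of the 10 groups in both libraries, were at 15.9 and 15.7 CPM.

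Neither Pfkfb1 nor Pfkfb2 was called in a group. Pfkfb1 was tested in 7 groups, with log2 ratios from -0.48 to 0.89, and Pfkfb2 in 8, with -0.47 to 0.97. The intervals stayed wide at these counts and reached beyond 2-fold in several groups, among them EC-like and epithelium-like cells, so that changes of that size could have been missed. In EC-like cells Pfkfb1 was 4.22 and 5.50 CPM (0.38, -0.45 to 1.32) and Pfkfb2 6.33 and 4.56 CPM (-0.47, -1.21 to 0.31). In epithelium-like cells Pfkfb2 was 11.2 and 18.5 CPM (0.73, 0.21 to 1.26).

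The makeup of the PFKFB transcripts therefore moved toward Pfkfb3. In EC-like cells the share of Pfkfb3 was 41.7% (32.3 to 51.5) of 108 UMIs in the control and 85.2% (83.0 to 87.2) of 1182 UMIs in the mutant library. Leaving out the control cell with 18 Pfkfb4 UMIs, 45 of the 90 control UMIs were of Pfkfb3 (39.3% to 60.7%). In epithelium-like cells Pfkfb3 held 22.6% and 67.4% and Pfkfb4 40.3% and 8.10%. The share of Pfkfb3 was higher in the mutant library in all 10 groups, though in cardiomyocyte-like cells the control share rested on 7 UMIs. The intervals overlapped there, in macrophage-like cells (61.5%, 54.6 to 68.2, and 69.4%, 63.0 to 75.3) and in the Adh1 cluster. In that cluster the shares were 60.9% (56.1 to 65.5) and 70.5% (63.7 to 76.7), and 43 of the 103 control Pfkfb4 UMIs lay in 1 cell.

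**Figure D4:**
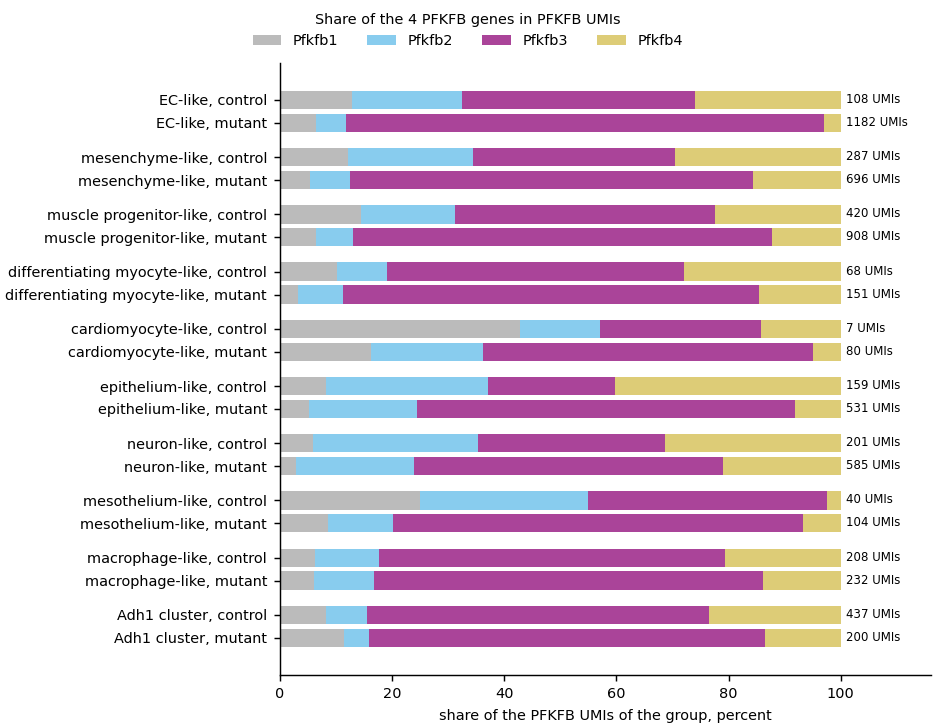
Shares of Pfkfb1 (grey), Pfkfb2 (light blue), Pfkfb3 (purple) and Pfkfb4 (yellow) in the UMIs of the 4 PFKFB genes, in percent, for each compared group and library, with the number of PFKFB UMIs at the right. The purple segment is longer in the mutant than in the control bar of each group, from 41.7% to 85.2% in EC-like cells.

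Summed over each family, PFK and PFKFB transcripts had near-equal ratios in EC-like cells. The PFK sum was 111 and 294 CPM (log2 ratio 1.41, 1.26 to 1.57) and the PFKFB sum 32.5 and 85.6 CPM (1.39, 1.11 to 1.69). For 100 PFK UMIs there were thus 29.4 PFKFB UMIs in control and 29.1 in mutant EC-like cells. Without the cell with the most Pfkfb4 UMIs in each library the PFKFB log2 ratio was 1.63 (1.32 to 1.96) against 1.42 for PFK, with 25.1 and 29.1 PFKFB per 100 PFK UMIs, so that the near equality rested in part on the control cell with 18 Pfkfb4 UMIs. In mesothelium-like cells the PFKFB sum rose further than the PFK sum (2.35 and 0.98), and the ratio was 14.98 (10.5 to 20.9) and 38.8 (30.6 to 48.8) PFKFB per 100 PFK UMIs. The unlike depth of these cells in the libraries is given above, and its part was not tested. Macrophage-like cells were the opposite case, with 37.8 (32.0 to 44.4) and 25.2 (21.7 to 29.2), with a log2 ratio of 0.61 for the PFK sum, and their PFKFB sum was 45.4 and 46.4 CPM. The makeup of that group differed between the libraries, with 92 control and 41 mutant cells with C1q transcripts. Those led by Mpo and Il7r numbered 80 and 135, and the part of this difference in the sums was not tested.

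The libraries differed in the sex of their cells, and Pfkp, Pfkfb3 and Pfkl differed beyond counting error between female-like and male-like cells of the mutant library. In mutant EC-like cells Pfkp was 45.2 CPM in female-like and 77.0 CPM in male-like cells, a log2 ratio of male-like over female-like of 0.77 (0.54 to 1.00). Pfkfb3 was 56.1 and 82.2 CPM (0.55, 0.34 to 0.76) and Pfkl 196 and 219 CPM (0.16, 0.05 to 0.28). Over the 10 groups, the interval lay above 0 for Pfkp in 7, for Pfkfb3 in 6 and for Pfkl in 4. Pfkfb3 differed most in mesenchyme-like cells, with 29.0 CPM in female-like and 84.4 CPM in male-like mutant cells (1.54, 1.17 to 1.93). Pfkm went the other way in neuron-like cells, with 46.5 CPM in female-like and 26.3 CPM in male-like cells. With 3 pooled embryos, sex and embryo cannot be told apart here.

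Among female-like cells alone, most log2 ratios of Pfkl, Pfkp and Pfkfb3 were nearer 0 than over all cells, with the same sign. This held for Pfkl in 10 of 10 groups, for Pfkfb3 in 7 of 9 and for Pfkp in 6 of 9. Some Pfkl shifts were small, as in muscle progenitor-like (1.12 against 1.13) and macrophage-like cells (0.94 against 0.96). The cell minimum of the compared groups was not applied to these subsets. Of the 54 control cardiomyocyte-like cells, 11 were female-like, against 95.5% of all control cells, and the reason was not tested. Female-like mutant cells numbered 12 in that group and 23 in mesothelium-like cells. Pfkl of female-like cells was higher beyond counting error in the mutant library in 9 of 10 groups tested, with 67.5 and 196 CPM in EC-like cells (1.53). Pfkfb3 was higher in 7 of 9 groups, with 14.4 and 56.1 CPM in EC-like cells (1.97). Pfkp was higher in 5 and lower in 2 of 9 groups, with 29.0 and 45.2 CPM in EC-like cells (0.64, 0.27 to 1.01), below the value of 1.19 for all cells. In the Adh1 cluster, where 29 mutant cells were female-like, Pfkl was 113 and 118 CPM and Pfkfb3 30.5 and 22.5 CPM, whereas Pfkp was 3.44 and 25.95 CPM (2.92, 1.92 to 3.86), farther apart than over all cells (2.18). Pfkp was also farther from 0 in female-like neuron-like (-0.84) and macrophage-like cells (-0.62).

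**Figure D5:**
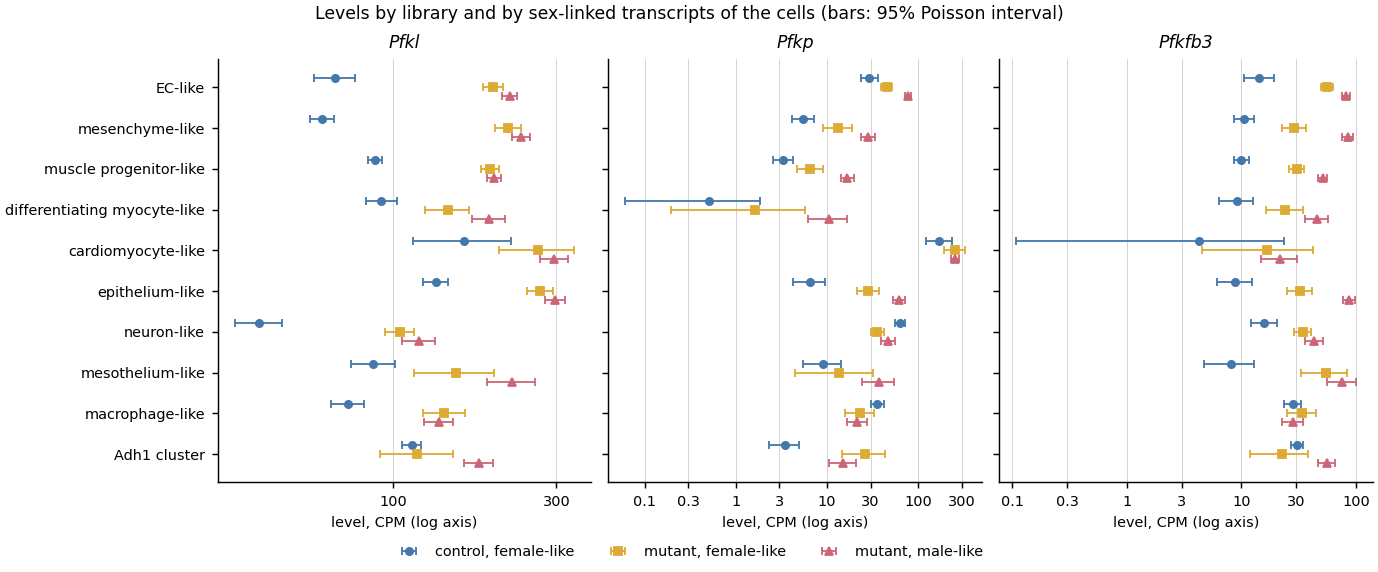
Levels of Pfkl, Pfkp and Pfkfb3 in CPM (log axis) in female-like control cells (blue), female-like mutant cells (yellow) and male-like mutant cells (red) of the 10 compared groups, with 95% Poisson intervals. In EC-like cells Pfkp steps from 29.0 to 45.2 to 77.0 CPM over these sets, whereas Pfkl of the female-like and male-like mutant cells is closer, at 196 and 219 CPM.

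The steps around PFK rose with Pfkl in most groups. Gpi1, the isomerase that makes the PFK substrate, was 288 and 559 CPM in EC-like cells (log2 ratio 0.96) and was called higher in 7 of 10 groups. Aldoa, the aldolase that splits the PFK product, was 557 and 1586 CPM (1.51) and was called higher in 10 of 10. Hk2, an inducible hexokinase, was 4.52 and 47.7 CPM (3.40) and was called higher in 8 groups. As with Pfkfb3, the groups without a call for Hk2 were the macrophage-like cells (50.2 and 38.4 CPM) and the Adh1 cluster (28.7 and 43.1 CPM).

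Of the 20 glycolysis genes outside PFK, 17 had enough UMIs in EC-like cells, of which 11 were called higher and 0 lower, with a median log2 ratio of 1.38 against -0.07 over all 14172 genes. Eno2 had the largest rise of them, from 1 to 334 UMIs (6.33, 3.84 to 11.63). Of 21 known HIF targets outside glycolysis, 20 were tested there, 19 were called higher and 0 lower, with a median of 2.62, and Slc2a3, a glucose transporter, had the largest rise (6.06). Both lists were chosen with earlier results of these data known, so that their counts are a description only. The study had already reported Vegfa, Adm, Slc2a1 and Pdk1 of the HIF list as raised in mutant ECs. For the 7 PFK and PFKFB genes the median was 0.38. Enzymes that act against PFK or PFKFB were not called in EC-like cells. Tigar, a fructose bisphosphatase, was 10.5 and 7.53 CPM (-0.49, -1.05 to 0.11), Fbp1 was at 2.71 and 1.81 CPM, and Fbp2 had 3 and 1 UMIs. Tigar was called higher in cardiomyocyte-like cells, from 5.77 to 21.5 CPM (1.90), and Fbp2 in muscle progenitor-like cells, from 2 to 19 UMIs.

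The genes whose levels ran most like those of a member were ranked over the 20 sums of group and library. These points share 2 libraries and their depth, so that the coefficients describe the sums and carry no test. For Pfkl the nearest of 12764 genes were Ldha (r = 0.93), Fam162a, Grhpr, Pdk1 and Higd1a. Ldha encodes lactate dehydrogenase and Pdk1 a kinase that restrains pyruvate dehydrogenase. For Pfkm they were Ss18l2 (0.94), Ppp1r1a, Ndufs4, Slc25a4 and Spryd7, of which Slc25a4 encodes the ADP/ATP carrier of heart and muscle. For Pfkp they were Nipsnap3b (0.86), Plekhb2, Hopx, Cisd3 and Tango2. For Pfkfb3 they were Ero1l (0.87), Uty (0.84), Gm42047, Hspa1b and Arrdc3. Ero1l, an oxidase of the endoplasmic reticulum, is the older symbol of Ero1a, a member of the HIF list that was not matched by symbol. Uty is Y-linked, and 95.5% of the control cells were female-like. Pfkfb4 ran most like Ctr9 (0.87), Pfkfb2 most like Strbp (0.89) and Pfkfb1 most like Dnmbp (0.86).

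Clusters with too few cells in a library are given as values. Smooth muscle and mural-like cells (97 control and 42 mutant cells) had Pfkl shares of 67.1% and 75.5% of the PFK UMIs. Neural crest-like cells (54 and 24 cells) had 75.3% and 84.3%. A hepatoblast-like cluster of 47 cells occurred in the mutant library alone, and Pfkl, the liver subunit, held 92.9% of its 326 PFK UMIs. The hepatoblast list also differed between the libraries in other groups. It stood at 2.11 and 23.7 CPM in EC-like, 0.724 and 23.4 CPM in muscle progenitor-like and 1.15 and 25.2 CPM in cardiomyocyte-like cells. The tissue was described as lying above the liver, and the part of this difference in low levels of the members was not tested.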

How the data were processed

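The sources give alignment of the reads to GRCm38/mm10 with Cell Ranger 7.1.0, and the authors deposited raw UMI counts per gene and called cell, without normalization. Intron counting, annotation release and strand setting are not given in the sources used here. The members and lists were chosen with earlier results of these data known.

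The study's limits were kept for cells: above 2000 genes, below 9000 genes and under 10% mitochondrial UMIs. Both libraries were joined by canonical correlation anchors in Seurat 5.3.0 (R 4.3.3), and the cell-cycle scores were then regressed out before clustering. The 2000 variable genes excluded 51 genes, among them the members. With 30 components and 20 neighbours, a resolution of 0.3 gave 15 clusters. A cluster was named where at least 3 markers of its nearest list were raised. In addition, no other list could have more markers among the 10 leading genes, which left the Adh1 cluster unnamed (1 against 2). The names are rebuilt. Doublets were kept, since Scrublet (scanpy 1.11.5) by its own threshold marked 0 control cells and 1 mutant cell; removal of the highest scores was an alternative.

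UMIs were summed per group and library and divided by the group total (CPM). There was 1 library per genotype, so that no p-value or standard error was computed. A CPM carries an exact Poisson interval, a share a Clopper-Pearson interval, and a ratio the exact binomial interval given the summed UMIs. Ratios were checked on simulated Poisson counts, the model that the interval assumes. That check does not cover UMIs gathered in single cells, as with Pfkfb4 in EC-like cells. A gene was called where its interval lay beyond 1.5-fold, with at least 20 UMIs in the group. The named genes were the 7 members, Gpi1, Aldoa, Tigar, Fbp1, Fbp2, Hk2, Eno3 and Pgam2, the largest rise and fall per list in EC-like cells, and for each member the 5 genes with the highest Pearson correlation of log2(CPM + 1), among genes with at least 500 UMIs. Of 21 HIF targets, 20 matched a symbol in the files. The other, Ero1a, is present there under its older symbol Ero1l, so that it was neither counted with the list nor kept out of the variable genes. Other tools were edgeR 4.0.16 (TMM factors only), matplotlib 3.10.9, pandas 2.3.3, scipy 1.17.1 and numpy 2.4.6 under Python 3.11.15.

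The alternatives were female-like cells, G1 cells, cells thinned to 5000 UMIs, the mean over cells, removal of high doublet scores, groups from marker counts, resolution 0.8, no integration, median-ratio and TMM scaling, a mitochondrial limit of 5%, at least 1000 genes with no upper limit, and other UMI minimums. After the data were seen, leaving out the cell with the most UMIs of a gene (also for the family sums) and splitting the neuron-like, muscle progenitor-like and macrophage-like cells were added.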

Additional observations from a re-analysis of the deposited data

Results flagged for a closer look

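For 3 of the genes the mutant over control ratio had opposite signs in different cell groups, each with its counting interval on one side of 0. The differences between groups were not tested, since there was 1 library per genotype. The log2 ratio of Pfkm was -0.50 in epithelium-like cells and 1.76 in differentiating myocyte-like cells. That of Pfkp was -0.58 in neuron-like and -0.59 in macrophage-like cells, and 3.74 in differentiating myocyte-like cells, where the control library held 2 UMIs. That of Pfkfb4 was -1.70 in EC-like and -0.997 in epithelium-like cells, and 0.69 in mesenchyme-like cells. The EC-like value of Pfkfb4 was -0.31 without the cell with the most Pfkfb4 UMIs in each library. The macrophage-like cells differed in makeup between the libraries, as given above, and the part of this difference was not tested.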

How the results depend on the processing

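In EC-like cells the log2 ratios of Pfkl, Pfkm, Pfkp and Pfkfb3 stayed above 0 under all alternatives run, with ranges of 1.39 to 1.75, 0.26 to 0.66, 0.64 to 1.70 and 1.97 to 4.47. Among female-like cells Pfkp was 0.64, Pfkfb3 1.97 and Pfkfb4 -2.80, the share of Pfkl in mutant EC-like cells 76.4% and that of Pfkfb3 82.6%, and Pfkp was called higher in 3 groups rather than 8. Among G1 cells Pfkl was 1.39, Pfkp 1.70, Pfkfb1 -0.46 and Pfkfb4 -0.84. With cells thinned to 5000 UMIs Pfkfb1 was -0.59, Pfkfb2 0.56 and Pfkfb3 4.47, the mutant share of Pfkl 70.8%, and Pfkp was called higher in 4 groups. Of the 146 thinned control EC-like cells, 2.05% held a Pfkfb3 UMI and 2.05% a Pfkfb2 UMI. The thinned values of these genes, and thus the upper end of the Pfkfb3 range, rest on few control UMIs. As a mean over cells Pfkfb3 was 2.94 and Pfkfb4 -0.67, and without the cell with the most UMIs in each library Pfkfb4 was -0.31. With a minimum of 1 UMI, 2.94% of all genes were called higher in EC-like cells. Of the 63 ratios, 18 changed sign under at least 1 alternative other than those added after the data were seen, 16 of them ratios whose interval over all cells included 0. Among ratios whose interval lay on one side of 0, signs changed for Pfkp in macrophage-like G1 cells (0.21), for Pfkfb3 in female-like cells of the Adh1 cluster (-0.44) and, on splitting, for Pfkfb4 in muscle progenitor-like cluster 6 (-0.23), each to a value whose interval included 0; the causes were not tested. In the groups other than EC-like cells, the ratios of members gave 718 values under the alternatives, including those added after the data were seen. Of these values, 644 lay within the counting interval of the same ratio over all cells. Relative to total UMIs, median-ratio and TMM scaling raised all log2 ratios by 0.10 and 0.13 in EC-like cells, lowered them by 0.10 and 0.12 in mesothelium-like cells, and TMM scaling raised them by 0.15 in cardiomyocyte-like and 0.11 in neuron-like cells. No paired analysis was possible because each genotype had 1 library. Depth limits Pfkfb1, Pfkfb2 and Pfkfb4, whose sums were under 20 UMIs over both libraries in 7 of the 70 pairs of gene and group.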
